A study of Mus musculus with 23 samples.

Results

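The genes described here encode proteins of the mitochondrial ribosome (Mrpl, large subunit; Mrps, small subunit) and of the translocases that carry proteins into mitochondria (Timm, inner membrane and intermembrane space; Tomm, outer membrane). They were taken by symbol, as every gene whose name in the platform annotation starts with one of these 4 prefixes followed by a digit. The rule found 68 of the 8726 named genes on the array, 52 of the mitoribosome (34 Mrpl and 18 Mrps) and 16 of import, each with 1 oligo. The rule itself uses symbols and no measured value. The annotation and the RefSeq gene table of GRCm38.p6 gave the same symbol for 68 of 68 genes, and the genes lie in 36 of the 48 printing blocks of the slide.

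Female Balb/c mice, 8 weeks old at injection, gave the RNA from their prefrontal cortex. Tumour mice received a subcutaneous injection of 100000 cells of the murine breast cancer line 4T-1 in 100 µl phosphate-buffered saline (PBS), while controls received only PBS. Tissue was taken 18, 72 or 192 h later, and cortex RNA of tumour and PBS mice was hybridised together on in-house printed 2-colour oligonucleotide arrays. The 14 arrays made from total RNA form 7 replicates. The 18 h time has 3 (numbers 4, 5 and 6) and the later times have 2 each (numbers 3 and 4), and each replicate is a dye swap of 2 arrays. The labels do not say if a replicate stands for 1 mouse or for pooled mice, and p-values speak only of the scatter among these RNA samples, part of which may be technical.

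Mitochondria keep a small genome whose messages encode core subunits of the respiratory chain, and these are translated inside the organelle by a ribosome of its own. All protein subunits of that ribosome are encoded in the nucleus, made in the cytosol and imported, as are nearly all other mitochondrial proteins. Precursors enter through the TOM complex of the outer membrane; those with a presequence then pass the TIM23 complex, and carrier proteins are escorted by the small Tim chaperones to the TIM22 complex. Neurons rely heavily on oxidative phosphorylation, which makes this machinery abundant in cortex. The roles given below are known from work in yeast and human cells.

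A value is the log2 ratio of tumour over PBS, averaged over both arrays of a swap and present only where both arrays gave a usable spot; a gene was tested at a time with at least 2 such values. The direction is likely rather than settled, because no file header says which dye each scanner channel holds. It rests on the authors' deposited log ratios, which followed channel B over A where the tumour label is Cy5 (correlation across spots 0.511 to 0.847) and ran the other way where it is Cy3 (-0.857 to -0.401). Between 2259 and 7825 spots were usable in a scan. Once turned to tumour over PBS, the arrays of a swap correlated below 0 over all oligos in 6 of the 7 swaps (r -0.596 to 0.156). In those 6 swaps, single tumour over PBS ratios thus did not repeat even between technical repeats. The ratios of channel B over A, before turning, tended to go the same way on both arrays. Replicate 3 at 192 h is on another printing of the array than the other 12 arrays. Of 52 cell type markers listed for cortex, 28 are on the array, and all 28, among them 9 of 12 neuronal markers, were usable on at least 7 of the 14 arrays; none of the 4 blood markers is on the array.

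All 68 genes gave a usable spot on at least 4 arrays, but few did so throughout. Mrpl9, Mrpl48, Mrpl52, Timm17a, Timm23 and Tomm40 had a value in all 7 replicates, which is 3 of 52 mitoribosome genes (5.77%) and 3 of 16 import genes (18.8%), against 5.81% of all 8997 oligos. Tests were possible at all 3 times for 16 genes, at 2 times for 16 and at 1 time for 24. The other 12 could not be tested at any time: Mrpl10, Mrpl16, Mrpl21, Mrpl28, Mrpl32, Mrpl44, Mrpl49 and Mrps18b, and of import Timm8a1, Timm9, Tomm20 and Tomm20l. Mrpl21 had no replicate value at all. Tomm22, Timm22, Timm29 and Timm50, further core members of the translocases, were not analysed here.

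Brightness was taken as the percentile rank of a spot among the usable spots of its scan, where 100 is the brightest. It depends on the oligo as well as on the RNA, so it does not order the genes by expression. The median gene of the mitoribosome lay at the percentile 62.0 and that of import at 70.4, against 35.1 for all oligos, 92.7 for genes of the respiratory chain and 96.5 for cytosolic ribosomal proteins. Among mitoribosome genes the medians ran from 10.5 (Mrpl32) to 91.1 (Mrps33, a small subunit protein with no bacterial counterpart), and among import genes the lowest was 21.7 (Tomm20l). The highest of these was that of Timm8b, a small chaperone of the intermembrane space, whose rank ran from 71.6 to 99.9. The rank of a gene moved widely between arrays: Tomm7, a small subunit of the TOM complex, ranged from 1.07 to 99.5 around a median of 82.9, and Tomm6, its neighbour in that complex, from 68.1 to 98.3.

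**Figure D1:**
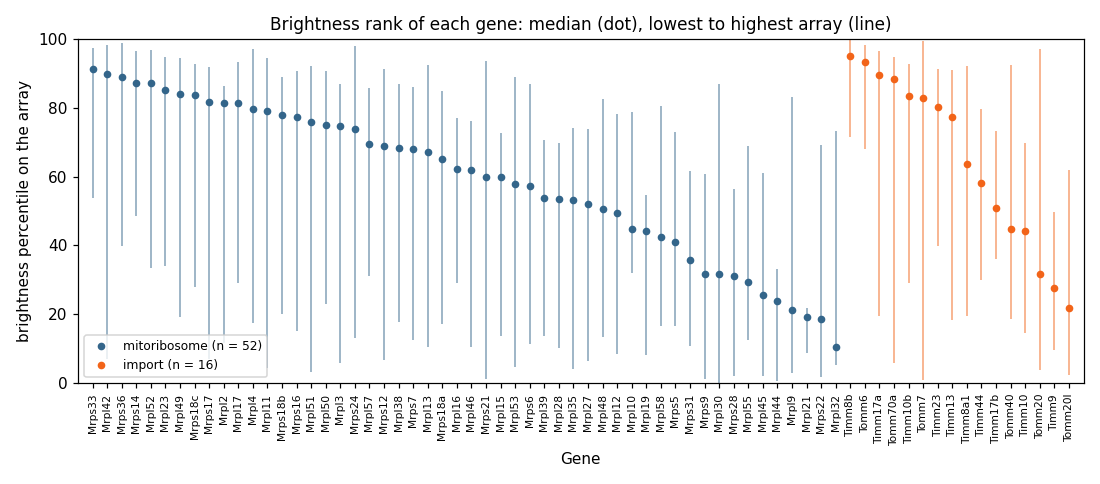
Brightness percentile of each of the 68 genes on the total RNA arrays (y axis, 0 to 100), with the median as a dot and the lowest to highest array as a line. Mitoribosome genes spread over most of the scale, import genes include Timm8b and Tomm6 near the top, and most lines are long.

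No mitoribosome or import gene passed the test at any time, and 12 of the 68 had no test. By limma with Benjamini-Hochberg adjustment over all oligos, 0 of 29 tested genes passed an adjusted p of 0.05 at 18 h, 0 of 40 at 72 h and 0 of 35 at 192 h. The background was also empty, with 0% of 3361, 0% of 4212 and 0% of 2753 oligos called. At an unadjusted p under 0.05 the genes again numbered 0 at each time, where 6.16%, 2.71% and 3.34% of all oligos lay under that level. The smallest unadjusted p among them was 0.0780 at 18 h (adjusted 0.820), 0.130 at 72 h (adjusted 0.998) and 0.0755 at 192 h (adjusted 1.00). A p that misses the threshold does not show equal levels, so the 95% intervals bear on how large a change could be. Their median width to either side was 0.32 at each time, and they lay wholly within a log2 ratio of ±0.5 for 22 of 29 genes at 18 h, 32 of 40 at 72 h and 28 of 35 at 192 h. Within ±1, a change of less than 2-fold in either direction, they lay for 29 of 29, 40 of 40 and 34 of 35 genes, the exception being Mrpl9. Because the tissue is a bulk mixture, fewer cells of a type and less RNA per cell cannot be told apart in any of these ratios.

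**Figure D2:**
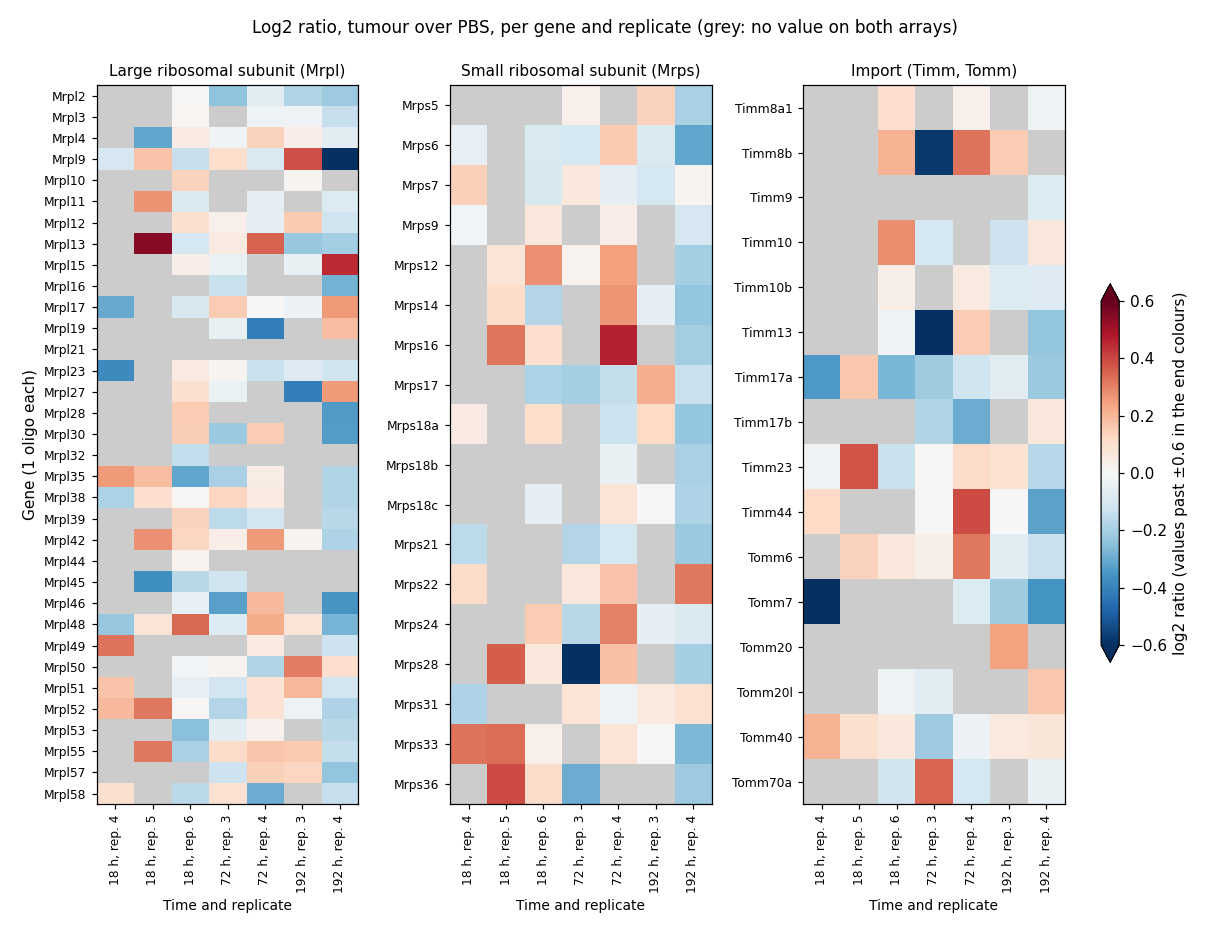
Log2 ratio of tumour over PBS (colour, from -0.6 to 0.6) for each gene (rows) in each of the 7 replicates (columns), with grey where the swap gave no value. Colours change from replicate to replicate within a time, with 192 h replicate 4 mostly blue in the mitoribosome and no row of one colour throughout among genes with 7 values.

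As a family the mitoribosome genes sat close to 0, with a median that differed more between replicates than between times. At 18 h the median of the 25 tested genes was 0.060 with 16 above 0, at 72 h that of 31 genes was -0.013 with 15 above 0, and at 192 h that of 27 genes was -0.073 with 8 above 0. The medians of all tested oligos were -0.0093, -0.016 and 0.017. By replicate, the mitoribosome median at 18 h was 0.017, 0.27 and 0.010 in replicates 4, 5 and 6; later it was -0.047 and 0.052 at 72 h, and 0.013 and -0.18 at 192 h. Replicate 5 at 18 h, where 15 of 17 measured genes were above 0, and replicate 4 at 192 h, where 8 of 47 were, stood apart from their own time's replicates. In replicate 5 at 18 h the values rest on a one-sided remainder of genes: 19 of 52 on the Cy5-tumour array and 33 of 52 on its partner had a good spot in the tumour channel alone, and 0 in the PBS channel alone. Of import genes, 9 and 10 of 16 were lost in this way. The same held for 3258 of 8997 oligos on the Cy5-tumour array and 6069 on its partner. Other replicates lost genes as well. In 192 h replicate 3, 10 mitoribosome genes (3016 oligos) were found in the PBS channel alone on the Cy5-tumour array. On its partner, 19 (4823 oligos) were found in the tumour channel alone. On the Cy3-tumour array of 18 h replicate 4, 20 were found in the PBS channel alone and 8 in the tumour channel alone. The part of these losses in the medians was not tested. Without 18 h replicate 5 the 18 h median was -0.0026, and without 192 h replicate 4 the 192 h median was 0.013. These medians are descriptions and were not tested. Of cell type markers, 5 of the 9 neuronal genes were tested at 192 h and 3 of them were above 0 (range -0.12 to 0.59, median 0.31), with medians of 0.12 and 0.052 over the 7 measured in each replicate. The oligodendrocyte markers had a median of -0.28 over 3 genes at 72 h, all below 0, and of 0.16 over 4 genes at 192 h, 3 of them above 0. No oligodendrocyte marker was tested at 18 h. The neuronal medians were -0.19 over 2 genes at 18 h and -0.013 over 5 at 72 h. The microglial medians were 0.076 over 2 genes at 18 h and 0.14 over 3 at 72 h. At 192 h the microglial median was -0.19 over 2 genes, both below 0. The endothelial and pericyte medians were -0.028 (1 oligo) at 18 h, -0.37 (3 oligos, all below 0) at 72 h and -0.013 (3 oligos) at 192 h. The astrocyte markers lay at 0.016, 0.060 and 0.063 at 18, 72 and 192 h. The part of cell types in the ratios was not tested.

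Both subunits showed the same order of the 3 medians. The 10 tested small subunit genes had a median of 0.13 at 18 h with 8 above 0, the 9 at 72 h one of 0.024 with 6 above 0, and the 10 at 192 h one of -0.065 with 2 above 0. The large subunit medians were 0.044 over 15 genes, -0.015 over 22 and -0.077 over 17. The most similar lists had medians in the same order over the tested oligos. The respiratory chain stood at 0.097, -0.044 and -0.080 and the cytosolic ribosome at 0.11, -0.060 and -0.11. Single replicates kept that order neither in the subunits nor in these lists. The large subunit median was -0.0032 and 0.0074 in 18 h replicates 4 and 6, against 0.017 in 192 h replicate 3. That of the small subunit was 0.017 in 18 h replicate 4, against 0.082 in 72 h replicate 4. The respiratory chain medians were -0.22, 0.39 and 0.16 in 18 h replicates 4, 5 and 6 and -0.045 and -0.15 at 192 h, so that 18 h replicate 4 was the lowest of all 7. The cytosolic ribosome medians were -0.18, 0.35 and 0.17 at 18 h against -0.043 and -0.21 at 192 h.

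The import genes gave medians of 0.090 over 4 genes at 18 h, -0.13 over 9 at 72 h and -0.089 over 8 at 192 h, with 3, 4 and 1 above 0. Their replicate medians were -0.021, 0.15 and 0.036 at 18 h, -0.10 and 0.044 at 72 h and lastly -0.032 and -0.078 at 192 h. Those at 18 h and at 72 h lay on both sides of 0, and without 18 h replicate 5 the 18 h median turned to -0.078, resting on 3 genes.

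**Figure D3:**
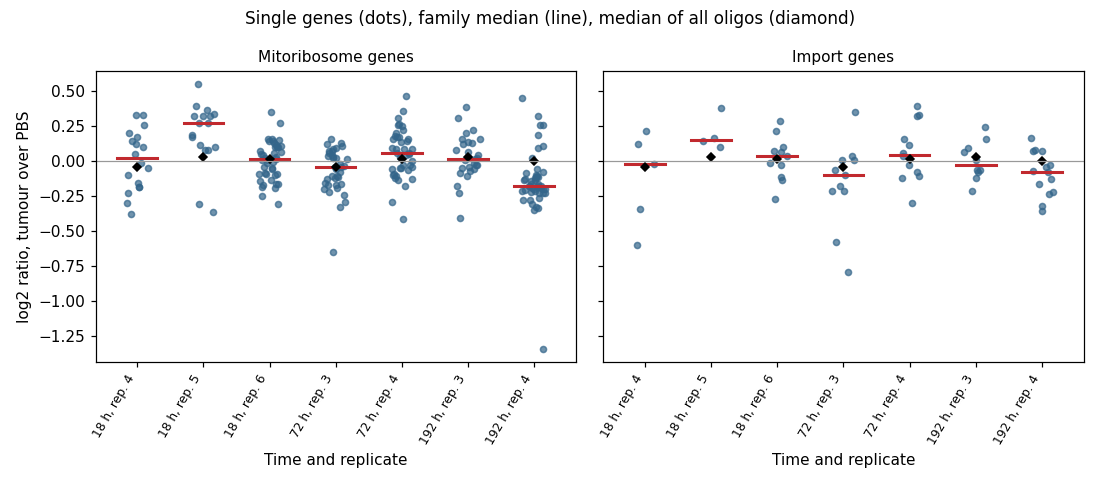
Log2 ratios of single genes (dots) by replicate, mitoribosome on the left and import on the right, with the family median as a line and the median of all oligos as a diamond. The line stands highest in 18 h replicate 5 for both families, and lowest in 192 h replicate 4 for the mitoribosome and in 72 h replicate 3 for import.

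Among large subunit genes, Mrpl52, a mitochondria-specific protein, had values of 0.20, 0.32 and 0.0074 at 18 h, -0.17 and 0.089 at 72 h, with -0.028 and -0.19 at 192 h. All 18 h values were above 0 and both 192 h values below 0, while those of 72 h lay on both sides. The estimates were 0.17 ± 0.12 (SE, n = 3), -0.043 ± 0.14 (n = 2) and -0.11 ± 0.14 (n = 2), with limma adjusted p of 0.892, 0.998 and 1.00.

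Mrpl13, a protein shared with bacterial ribosomes, gave 0.55 and -0.10 at 18 h (replicates 5 and 6), 0.053 and 0.35 at 72 h, then -0.23 and -0.20 at 192 h. Its 72 h and 192 h values did not overlap, and at 18 h the replicates lay on opposite sides of 0. Of the 16 genes tested at all times it had the smallest p for a difference between times, 0.161 by limma's F test (adjusted 0.934).

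Mrpl17, which lies near the exit of the peptide tunnel, ran the other way, with -0.30 and -0.098 at 18 h (replicates 4 and 6), 0.15 and -0.0013 at 72 h and lastly -0.033 and 0.25 at 192 h. The 18 h values lay below all others. The F test gave p = 0.267 (limma adjusted p 0.934).

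Mrpl9, another protein with a bacterial counterpart, was measured on all 14 arrays and varied most between replicates of the 6 genes with 7 values (SD 0.56). Its replicate values were -0.10, 0.17 and -0.14 at 18 h, 0.11 and -0.093 at 72 h, with 0.39 and -1.34 at 192 h. The value of -1.34 came from arrays that read 0.31 and -2.99, at brightness percentiles of 70.8 and 78.8, against a median percentile of 21.3 over all arrays. The 192 h estimate of -0.48 ± 0.26 (SE, n = 2; limma adjusted p 1.00) thus rested on a single array. When 192 h replicate 3 was left out, Mrpl9 was among 19 oligos called. That leaves 1 replicate at 192 h, assumed to vary like those of the other times, and the call rests on the array at -2.99. No other mitoribosome or import gene passed in any alternative run.

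Mrpl48, a mitochondria-specific protein, read -0.23, 0.076 and 0.34 at 18 h, -0.084 and 0.22 at 72 h, then 0.078 and -0.28 at 192 h, with both signs at every time. Mrpl45, which in human mitochondria lines the tunnel exit and anchors the ribosome to the inner membrane, read -0.37 and -0.17 at 18 h (replicates 5 and 6) and -0.12 in 72 h replicate 3, all below 0. Its 18 h estimate of -0.27 ± 0.15 (SE, n = 2) had a limma adjusted p of 0.832.

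Mrpl23, a protein of the tunnel exit, read -0.38 and 0.053 at 18 h, 0.015 and -0.13 at 72 h and lastly -0.076 and -0.12 at 192 h. Mrpl42, mitochondria-specific, read 0.27 and 0.12 at 18 h, 0.040 and 0.26 at 72 h, with 0.017 and -0.18 at 192 h. Mrpl2, which lies by the peptidyl transferase centre, was below 0 in its 5 values, from -0.24 to -0.012. The estimates of Mrpl23 and Mrpl42 were at most 0.20 from 0 at each time, and the SE of each was at least 0.14.

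Mrpl19 at 72 h (-0.23 ± 0.16, SE, n = 2), Mrpl50 at 192 h (0.20 ± 0.15) and Mrpl15 at 192 h (0.20 ± 0.16) were the other large subunit genes of smallest p in their direction. Mrpl50 was at 0.31 and 0.10 at 192 h, both above 0, whereas Mrpl15 was at -0.045 and 0.45, on both sides of it. Mrpl19 was at -0.047 and -0.41 at 72 h, both below 0.

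Of the small subunit, Mrps33 came nearest to the threshold at 18 h. It read 0.32, 0.33 and 0.030 there, 0.083 in 72 h replicate 4, and 0.0094 and -0.27 at 192 h. The 18 h values, as swap means, were all above 0, and the lowest of them lay below the 72 h value. In each of these swaps the arrays lay on opposite sides of 0. With tumour RNA in Cy5 they read -0.12, 0.69 and 0.18, and with it in Cy3 0.76, -0.018 and -0.12. The 18 h estimate was 0.23 ± 0.12 (SE, n = 3) with a limma p of 0.0780, adjusted 0.820.

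Mrps36, since recognised as a component of the 2-oxoglutarate dehydrogenase complex rather than of the ribosome, read 0.39 and 0.11 at 18 h, -0.30 in 72 h replicate 3 and -0.22 in 192 h replicate 4. Mrps12, a protein of the decoding centre, read 0.078 and 0.27 at 18 h, 0.020 and 0.25 at 72 h, and -0.21 in 192 h replicate 4. Both were above 0 in each 18 h value and below 0 in their 192 h value, which in each case is that of replicate 4.

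Mrps28 read 0.36 and 0.062 at 18 h, -0.65 and 0.18 at 72 h, and -0.20 in 192 h replicate 4. Its 72 h replicates lay on opposite sides of 0 (estimate -0.24 ± 0.18, SE, n = 2). The value of -0.65 came from arrays that read -0.17 and -1.13, at brightness percentiles of 7.68 and 2.17. The median percentile of Mrps28 over all arrays was 31.1. Mrps17, shared with bacteria, was at -0.20 and -0.14 at 72 h, both below 0, and at 0.22 and -0.13 at 192 h. Mrps6, also of bacterial descent, read -0.049 and -0.092 at 18 h, -0.11 and 0.16 at 72 h, then -0.088 and -0.31 at 192 h. It was below 0 in 5 of its 6 values, with a 192 h estimate of -0.20 ± 0.14 (SE, n = 2; limma adjusted p 1.00).

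**Figure D4:**
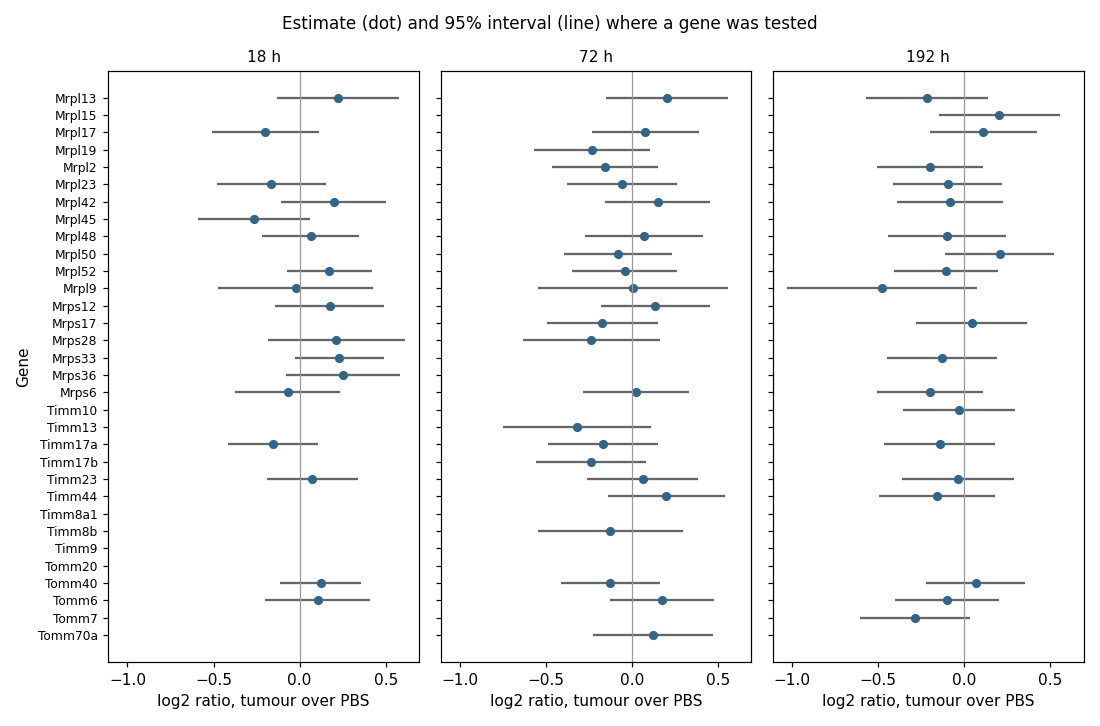
Estimated log2 ratio of tumour over PBS (dot) with its 95% interval (line) for the genes named by the fixed rule, at 18, 72 and 192 h, shown where a gene was tested. All intervals include 0, and that of Mrpl9 at 192 h reaches from -1.03 to 0.072.

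At the outer membrane, Tomm40, the pore of the TOM complex, had 7 values. They were 0.21, 0.096 and 0.064 at 18 h, -0.22 and -0.033 at 72 h and lastly 0.059 and 0.075 at 192 h. The 72 h values, each the mean of a swap, lay below those of the other times without overlap. Readings of single arrays did overlap between times. The estimates of 0.12 ± 0.11 (SE, n = 3), -0.13 ± 0.14 (n = 2) and 0.067 ± 0.14 (n = 2) had limma adjusted p of 0.917, 0.998 and 1.00. The F test gave a limma p of 0.332, adjusted 0.934.

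Tomm6, a small TOM subunit, read 0.14 and 0.069 at 18 h (replicates 5 and 6), 0.034 and 0.32 at 72 h, with -0.067 and -0.13 at 192 h. Its 192 h values lay below all others, and the F test gave p = 0.357 (limma adjusted p 0.934). Tomm7 was below 0 in its 4 swap means, but not on every array. The means were -0.60 in 18 h replicate 4, -0.081 in 72 h replicate 4, and -0.21 and -0.36 at 192 h. With tumour RNA in Cy5 and then in Cy3, Tomm7 read 0.25 and -1.46 in 18 h replicate 4. It read 0.039 and -0.20 in 72 h replicate 4, 0.50 and -0.93 in 192 h replicate 3, and -0.44 and -0.28 in 192 h replicate 4. At 192 h its estimate of -0.29 ± 0.15 (SE, n = 2) had the smallest p of the import genes (0.0755, limma adjusted p 1.00).

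Of the receptors, Tomm70a, which binds carrier precursors, was tested at 72 h alone, where its values were 0.35 and -0.11. It also read -0.12 in 18 h replicate 6 and -0.042 in 192 h replicate 4. Tomm20, the receptor for presequences, gave 1 value, 0.24 in 192 h replicate 3.

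In the TIM23 complex of the inner membrane, Timm17a was furthest from 0 of the 3 import genes with 7 values. It read -0.35, 0.16 and -0.27 at 18 h, -0.21 and -0.12 at 72 h, then -0.066 and -0.22 at 192 h. It was thus below 0 in 6 of 7 replicates, replicate 5 at 18 h being the exception. The share of all oligos with such a count was not taken. Timm17a was below 0 on both arrays in 18 h replicate 6, 72 h replicate 4 and 192 h replicate 4. In the other swaps its arrays lay on opposite sides of 0. Its mean over the times was -0.15 ± 0.080 (SE) with a limma p of 0.0780, adjusted 0.996, where 0% of the 1222 oligos tested at all times were called and 1.64% had an unadjusted p under 0.05.

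Timm23, the channel subunit, read -0.021, 0.38 and -0.14 at 18 h, 0.0082 and 0.11 at 72 h and lastly 0.091 and -0.17 at 192 h. Timm17b, the paralogue of Timm17a, read -0.18 and -0.30 at 72 h and 0.068 in 192 h replicate 4. Timm44, which tethers the import motor to the channel, read 0.12 in 18 h replicate 4, 0.0071 and 0.39 at 72 h, and 0.0020 and -0.32 at 192 h. The 95% interval of Timm23 ran from -0.19 to 0.34 at 18 h, from -0.26 to 0.39 at 72 h and from -0.36 to 0.29 at 192 h.

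The small chaperones of the intermembrane space were measured least. Timm13, which works with the Timm8 proteins, read -0.79 and 0.15 at 72 h, and its partner Timm8b -0.58 and 0.33 in the same replicates 3 and 4. Both were thus low in replicate 3 and high in replicate 4, and neither passed (limma adjusted p 0.998). Elsewhere Timm13 read -0.020 in 18 h replicate 6 and -0.24 in 192 h replicate 4, and Timm8b 0.21 in 18 h replicate 6 and 0.15 in 192 h replicate 3. Timm10 read 0.28 in 18 h replicate 6, -0.10 in 72 h replicate 3, and -0.13 and 0.066 at 192 h, with both signs. Timm8a1, related to the gene lost in human deafness-dystonia syndrome, read 0.10, 0.033 and -0.032 in 18 h replicate 6, 72 h replicate 4 and 192 h replicate 4. Timm9, the obligate partner of Timm10, gave -0.081 in 192 h replicate 4 alone.

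Some genes had the same sign in every replicate of a time, as did a share of all oligos that is given in parentheses. At 18 h, 2 of 6 mitoribosome genes with all 3 values were above 0 in each (11.9% of oligos) and 0 were below in each (14.3%). At 72 h, 6 of 31 were above 0 in both replicates (21.4% of oligos) and 5 below in both (27.2%). At 192 h, 2 of 27 were above (26.5%) and 8 below (22.2%), the latter being Mrpl2, Mrpl3, Mrpl13, Mrpl23, Mrpl52, Mrps6, Mrps14 and Mrps24. Of import genes, Tomm40 was above 0 in each replicate at 18 h, 1 of 3 genes with all values, and at 72 h 3 of 9 were above and 3 of 9 below in both. Of 8 import genes, 1 was above and 4 were below at 192 h, namely Timm10b, Timm17a, Tomm6 and Tomm7. No test was made of these shares.

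Differences between times were called for 0 of 16 genes, against 0% of 1222 oligos (3.27% at an unadjusted p under 0.05). Genes with all measured replicates of 1 time above 0 and all of another below 0, at least 2 values at each, were also few. From above at 18 h to below at 72 h went 1 of 21 genes (3.25% of oligos), and from below to above went 0 (6.1%). Between 18 and 192 h, 2 of 19 went from above to below 0 (3.45%) and 0 went the other way (7.77%). Between 72 and 192 h the counts were 2 of 24 (5.82%) and 1 of 24 (6.49%). Over the 68 genes, values of replicates at the same time were no more alike than those at different times. The correlation across genes had a median of -0.095 over 5 same-time pairs and -0.013 over 16 pairs from different times. All oligos gave 0.026 and -0.021.

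What did repeat was a difference between the dyes. Within each swap, the mitoribosome median of tumour over PBS was higher where Cy5 marked the tumour RNA than where Cy3 did, in 7 of 7 swaps. At 18 h the array medians were 0.29 and -0.083 in replicate 4, 0.40 and 0.024 in replicate 5, and 0.095 and -0.030 in replicate 6. At 72 h they were 0.030 and -0.12 in replicate 3, and 0.23 and -0.10 in replicate 4. At 192 h they were 0.14 and -0.14 in replicate 3, and -0.057 and -0.22 in replicate 4. The genes thus leaned towards the channel read as Cy5, whichever RNA it held. The gap divided by 2, taken gene by gene, had medians of 0.052 to 0.19, against -0.023 to 0.020 over all oligos; for import it was above 0 in 6 of 7 swaps, 72 h replicate 3 having -0.16. The loess normalisation holds the median of all oligos near 0, so it does not show how large the gap is in single oligos. Over the 523 oligos with 7 values, the median absolute size was 0.15 for this gap and 0.13 for the ratio. The gap had the same sign in all 7 swaps for 9.75% of them, and the ratio for 0.382%.

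In a fit with a dye term on single arrays, 38 of 48 mitoribosome genes (79.2%) and 12 of 15 import genes (80.0%) had a positive dye term, with medians of 0.096 and 0.11. Over all 7823 oligos 51.2% were positive, with a median of 0.0040. The respiratory chain (87.8% positive, median 0.13) and the cytosolic ribosome (94.6%, median 0.14) leaned the same way. No gene of either family was called for the term, against 0% of oligos called higher and 0.601% called lower. At an unadjusted p under 0.05, 6 of 48 mitoribosome and 3 of 15 import genes were higher (5.10% of oligos) and 2 and 0 were lower (6.75%). Mrpl52 came nearest, at 0.26 ± 0.061 (SE; limma adjusted p 0.0572). The mean over both arrays of a swap cancels a dye term that is equal on both, and whether the offset contributes to the replicate medians was not tested.

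**Figure D5:**
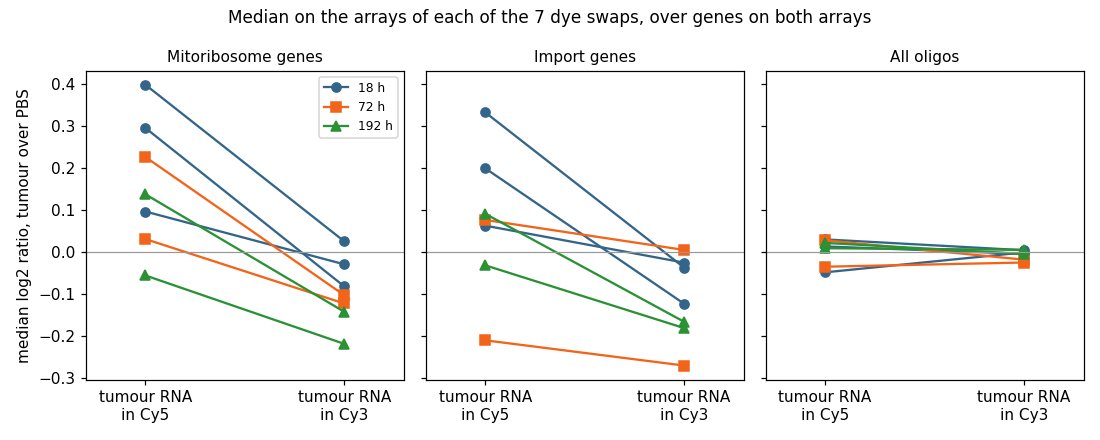
Median log2 ratio of tumour over PBS on the array whose tumour label was Cy5 and on its partner whose tumour label was Cy3, for each of the 7 swaps (lines, coloured by time), over the genes usable on both arrays. Lines fall from left to right for mitoribosome and import genes, and those for all oligos stay near 0.

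Genes that act with these families gave few small p-values. Of 20 import and processing partners on the array, 7, 12 and 10 were tested at 18, 72 and 192 h, and 0 were called. Dnajc15, a co-chaperone of the import motor, stood at -0.39 ± 0.15 at 18 h (SE, n = 2; limma p 0.0213, adjusted 0.758), and Grpel1, the nucleotide exchange factor of that motor, at -0.37 ± 0.16 at 192 h (n = 2; p 0.0408, adjusted 1.00). Of 18 partners of mitochondrial translation and ribosome assembly, 6, 10 and 7 were tested and none had an unadjusted p under 0.05. Of 9 genes of mitochondrial DNA expression and biogenesis, 3, 6 and 4 were tested and 0 were called; Esrra, a nuclear receptor that drives mitochondrial genes, stood at -0.33 ± 0.14 at 192 h (SE, n = 2; p 0.0399, limma adjusted 1.00). Tfam, which packages mitochondrial DNA, was at -0.10 ± 0.14 at 72 h and -0.16 ± 0.14 at 192 h.

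A feature that the choice by symbol did not use is the promoter. RefSeq promoters of GRCm38.p6, from 250 bases before to 50 after the start, were found for 61 of the 68 genes. They were searched on both strands for the core motifs of NRF1 (its letters stand in capitals in the windows below, with any base allowed at the sixth), GABPA (CCGGAAGT) and YY1, factors known for nuclear genes of mitochondria. NRF1 letters were present in 21.3% of the 61 genes, against 9.11% of 6948 genes on the array and 5.19% of 27025 genes of the table. GABPA letters were present in 18.0%, against 6.56% and 4.31%, and YY1 letters in 3.28%, against 1.55% and 0.995%. At least 1 of the 3 was present in 26 genes (42.6%, against 16.3% of genes on the array), and no promoter of a member held more than 1 of them. Import genes held GABPA letters in 4 of 15 and NRF1 letters in 2 of 15, and mitoribosome genes in 7 and 11 of 46. The median GC content was 59.3% for these promoters and 58.7% for those of genes on the array. The Nrf1 gene itself was tested at 72 h, at -0.17 ± 0.15 (SE, n = 2; limma adjusted p 0.998).

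The windows below show the match in genes whose values were given above, with 15 bases to each side where the window allows, on the strand of the gene and with the motif in capitals. They stand for both motifs and both families. Mrpl9, Mrpl17, Mrpl45 and Tomm20 hold NRF1 letters, Mrpl45 at more than 1 place, of which the nearer to the start is shown. Mrpl48, Timm23 and Tomm70a hold GABPA letters.
Mrpl9, NRF1, chr3:94443293-94443332, plus strand: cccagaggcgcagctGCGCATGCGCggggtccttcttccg
Mrpl17, NRF1, chr7:105811112-105811151, minus strand: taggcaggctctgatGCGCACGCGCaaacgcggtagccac
Mrpl45, NRF1, chr11:97315663-97315702, plus strand: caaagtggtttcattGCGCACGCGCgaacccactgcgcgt
Tomm20, NRF1, chr8:126945922-126945956, minus strand: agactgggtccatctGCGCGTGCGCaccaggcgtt
Mrpl48, GABPA, chr7:100583143-100583180, minus strand: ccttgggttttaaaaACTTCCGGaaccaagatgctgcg
Timm23, GABPA, chr14:32201917-32201954, minus strand: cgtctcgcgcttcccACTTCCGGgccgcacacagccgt
Tomm70a, GABPA, chr16:57121619-57121656, plus strand: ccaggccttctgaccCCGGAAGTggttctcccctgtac
The matches lie between 11 (Tomm20) and 80 (Tomm70a) bases before the start. In Mrpl48 and Timm23 the GABPA letters read on the opposite strand of the gene, and in Tomm20 the NRF1 letters do. A match is a run of letters and no measure of binding, which these arrays do not record.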

How the data were processed

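Each array was scanned 3 times. Per the file headers, the deposited tables give for every spot a background-subtracted intensity in 2 channels and the unsaturated fraction of its pixels. The authors' deposited log ratios (a log2 or other base, not stated; medians near 0 on each array, from -0.0064 to 0.0034) served to choose the likely direction and as an alternative. No source used here names the image analysis program.

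Spots flagged good in both channels, with intensities above 0 and a saturation factor of at least 0.9, gave log2 ratios. These were normalised by loess (span 0.3) over each scan and averaged over scans. Arrays with tumour RNA in Cy3 were turned, and both arrays of a swap were averaged. The model was limma's (version 3.58.1 under R 4.3.3; lmFit and eBayes), with 1 coefficient per time, over all oligos, two-sided, with Benjamini-Hochberg adjustment. Normexp correction was kept as an alternative, since the intensities were already background-corrected. On simulated data, 100 of 100 oligos with a log2 change of 1 were recovered at 18, 72 and 192 h, with 25, 10 and 12 false calls. Another 100 oligos carried a change of 2. The simulated noise was independent and normal, of an assumed spread and without a dye effect. The recovery therefore does not measure the power on these arrays.

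Genes named in the text were those of smallest p per time, family and direction (3 and 3 of the mitoribosome, 2 and 2 of import), those of largest mean over 7 replicates, the 3 of smallest F test p, and core translocase genes whatever their values. The rule for members uses symbols alone, but it and the lists were chosen with earlier results of these data known. The 9 arrays made from poly A RNA were not used. The number of arrays limits the precision. Same-numbered replicates at 72 and 192 h did not deviate together (r 0.0046 over 1925 oligos, 2 pairs), so numbers were not taken as pairs. Alternatives covered background, normalisation, filters, model, source of the ratios, replicates left out, dye orientation and complete genes.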

Additional observations from a re-analysis of the deposited data

Results flagged for a closer look

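In 4 genes every measured replicate of a time lay on one side of 0 and every measured replicate of another time on the opposite side. Tomm6 and Mrpl13 have no value in 18 h replicate 4. They are given as values, the pairwise differences themselves were not tested, and the F test between all times had a limma adjusted p of 0.934 for each gene.

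Mrpl52, of the large ribosomal subunit, was above 0 at 18 h and below 0 at 192 h, a difference of -0.28 in the log2 ratio (192 h minus 18 h). Among 19 genes of both families with values at 18 and 192 h it shared this order with Tomm6, a count of 2, where 3.45% of oligos showed it. The dye gap of Mrpl52 divided by 2 was above 0 in 7 of 7 swaps (median 0.29). At 192 h its arrays read 0.34 and 0.023 with tumour RNA in Cy5, and -0.39 and -0.40 with it in Cy3. The part of the dyes in this order was not tested. Mrpl13, also of the large subunit, was above 0 at 72 h and below 0 at 192 h, a difference of -0.42. With Tomm6 this made 2 of 24 genes, against 5.82% of oligos. The arrays of Mrpl13 with tumour RNA in Cy5 read 0.24 and 0.49 at 72 h, and -0.10 and 0.053 at 192 h. With it in Cy3 they read -0.13 and 0.22 at 72 h, and -0.35 and -0.46 at 192 h.

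Tomm6, of the outer membrane translocase, differed by -0.21 between 192 and 18 h and by -0.28 between 192 and 72 h. At 192 h the arrays of Tomm6 read -0.20 and 0.095 with tumour RNA in Cy5, and 0.067 and -0.36 with it in Cy3. Tomm40, the pore of that translocase, was below 0 at 72 h and above 0 at the other times in its swap means. The difference was -0.25 from 18 to 72 h and 0.19 from 72 to 192 h. It was the 1 gene of 21 with the former order (3.25% of oligos) and the 1 gene of 24 with the latter (6.49%).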

How the results depend on the processing

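Each count of called oligos was 0 in the main analysis (adjusted p under 0.05; unadjusted 207, 114 and 92 oligos at 18, 72 and 192 h) and remained 0 with normexp, loess within blocks, no saturation limit, without the dimmest 0.25 of oligos, limma with trend and robust settings, arrays as observations, and the authors' ratios. Median centring without loess called 8 oligos at 18 h and 1 at 192 h, none of these genes, and gave a mitoribosome median of -0.095 at 72 h and an import median of -0.18 at 192 h. Loess within blocks put the import median at 72 h at -0.0029, and the authors' ratios, of unstated base, put that of 192 h at -0.026. With each replicate left out in turn, calls ranged from 0 to 1 at 72 h (1 without replicate 4) and from 0 to 19 at 192 h (19 without replicate 3, Mrpl9 among them). The import median then ranged from -0.078 to 0.15 at 18 h, from -0.13 to 0.044 at 72 h and from -0.089 to -0.032 at 192 h, lying at the end nearest to or past 0 without 18 h replicate 5, 72 h replicate 3 and 192 h replicate 4; the mitoribosome median ranged from -0.0026 to 0.16, from -0.047 to 0.052 and from -0.18 to 0.013. With the replicate number as a block, 33 of 523 oligos were called between times and 3 over all times, none of them a mitoribosome or import gene; the block left 1 residual degree of freedom.

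Chosen after seeing the data were the arrays not turned for the swap, a single dye orientation, and genes with all 7 values. Not turned, 49, 18 and 10 oligos were called at 18 h, at 72 h and over all times, with mitoribosome medians of 0.12 at 72 h and 0.10 at 192 h and an import median of 0.16 at 192 h. Only arrays with tumour RNA in Cy5 gave 1 call at 18 h, 5 over all times, a mitoribosome median of 0.096 at 72 h and an import median of 0.012 at 192 h. Only arrays with tumour RNA in Cy3 gave 64, 21, 1 and 26 calls at 18 h, at 72 h, between times and over all times, a mitoribosome median of -0.13 at 72 h, and import medians of -0.15 at 18 h and -0.21 at 192 h. No mitoribosome or import gene was among these calls. The 3 import genes with all 7 values had a median of -0.039 at 192 h. The cause of these shifts was not tested. Spots that were not usable in both channels limit which genes have values. The reason for these losses was not tested.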
